A study of Mus musculus with 7 samples.

Results

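Collagen genes were followed in soft tissue beside a healing hole in the mouse lower jaw, in tissue that can or cannot make interleukins 17A and 17F. The 44 genes were taken by name, as every gene of the count table named Col, a number, a and a second number, out of 49164 genes with counts. Each of the 7 libraries holds polyadenylated RNA from muscle and soft callus collected around a 1.5-mm hole drilled in the mandible, 5 days after the injury. The 4 WT libraries come from littermates of Il17af-/- mice, and the 3 libraries labelled IL17KO come from the Il17af-/- mice themselves. All 7 share the injury and the time point, so no uninjured tissue enters the comparison. The labels do not say that each library is a separate animal, and p-values therefore measure the spread between these samples, which may be technical.

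Collagens are the fibrous proteins of the extracellular matrix, built of chains wound into a triple helix with glycine in each Gly-X-Y triplet. Fibrillar collagens such as types I and III form the cables of skin, tendon, bone and scar, type IV forms the sheets of basement membranes around vessels and muscle fibres, and the FACIT collagens sit on the surface of fibrils. Types II, IX, X and XI belong to cartilage, and the type VI chains form beaded filaments around cells. In a healing bone defect, fibroblasts and osteoblast precursors first fill the gap with a matrix rich in types I and III, part of which can be replaced by cartilage and then bone.

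The coding sequences show the repeat that unites the family, and 81 bases from the start of the longest unbroken repeat are given for 6 chains from 4 of the 5 groups described here. They are read from GENCODE transcripts of the GRCm38 build, and the capitals mark the glycine codon, GGN, that opens each Gly-X-Y triplet.
Col1a1: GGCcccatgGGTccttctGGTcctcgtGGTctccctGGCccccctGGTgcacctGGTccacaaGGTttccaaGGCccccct
Col1a2: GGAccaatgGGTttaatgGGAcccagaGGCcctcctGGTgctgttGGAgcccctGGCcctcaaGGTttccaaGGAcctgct
Col3a1: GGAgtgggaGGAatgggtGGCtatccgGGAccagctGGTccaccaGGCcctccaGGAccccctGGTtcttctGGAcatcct
Col4a1: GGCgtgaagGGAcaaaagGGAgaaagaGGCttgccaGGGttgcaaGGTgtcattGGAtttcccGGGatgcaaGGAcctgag
Col6a1: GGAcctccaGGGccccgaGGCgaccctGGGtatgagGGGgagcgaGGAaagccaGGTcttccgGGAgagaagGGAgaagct
Col12a1: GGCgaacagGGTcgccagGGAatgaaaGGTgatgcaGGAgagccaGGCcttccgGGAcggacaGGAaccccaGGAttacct
In the 8 fibrillar chains the longest unbroken run of such triplets was 216 to 344 triplets, with a median of 338. In the 9 basement membrane chains it was 30 to 75 triplets, in the 6 FACIT chains 32 to 113 and in the 14 remaining chains 23 to 87. The 7 cartilage chains covered both kinds. Col2a1, Col11a1 and Col11a2, whose proteins form fibrils, had runs of 339, 338 and 338 triplets, whereas the 3 type IX chains had 113 each and Col10a1 had 61. Codons for proline, CCN, made up 19.0% of the Col1a1 codons, 19.5% of those of Col3a1 and 8.0% of those of Col6a1.

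The libraries held between 18539904 and 26271176 counts, and a floor of 3 counts corresponds to 0.111 to 0.162 CPM (read counts rescaled to libraries of equal size). Il17a had 0 counts in all 7 libraries and Il17f had 0 in WT and 1, 1 and 0 in IL17KO replicates 1 to 3, so the counts cannot check the genotype labels. The 25 skeletal muscle markers were all measured in tissue labelled as muscle and soft callus, and the fibroblast, osteoblast, endothelial and tenocyte markers were detected as well. Of the 8 chondrocyte markers 6 passed the filter on low counts. The matrilin gene Matn1 had counts in WT replicate 3 alone. WT replicate 3 and IL17KO replicate 3 stood apart as the extremes of the first principal component (50.1% of the variance). Values without them are given for a part of the collagen genes and for the collagen sum. The marker and pathway lists are given with all 7 libraries only.

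Collagen transcripts were a large part of the RNA. They took 4.73%, 4.01%, 6.58% and 3.58% of all counts in WT replicates 1 to 4 and 4.53%, 6.05% and 2.46% in IL17KO replicates 1 to 3. WT replicate 3 and IL17KO replicate 2 were the richest, IL17KO replicate 3 was the poorest, and the groups overlapped. All 44 genes had counts, and 41 passed the filter and were tested. The remaining Col4a6, Col9a1 and Col9a3 had at most 7, 9 and 11 counts in any library.

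Fibrillar collagens made up most of the pool. They held 82.7%, 80.9%, 82.9% and 81.4% of the collagen counts in the WT libraries and 83.3%, 83.4% and 81.6% in the IL17KO libraries, a narrow band in which the groups overlapped. Counted per kilobase of transcript their mean share was 81.8% ± 1.09 in WT (SD, n = 4) and 82.6% ± 1.33 in IL17KO (SD, n = 3). Only 3 genes, Col1a1, Col3a1 and Col1a2, accounted for 70.4% ± 0.890 of the collagen counts in WT (SD, n = 4) and 71.3% ± 0.909 in IL17KO (SD, n = 3).

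**Figure D1:**
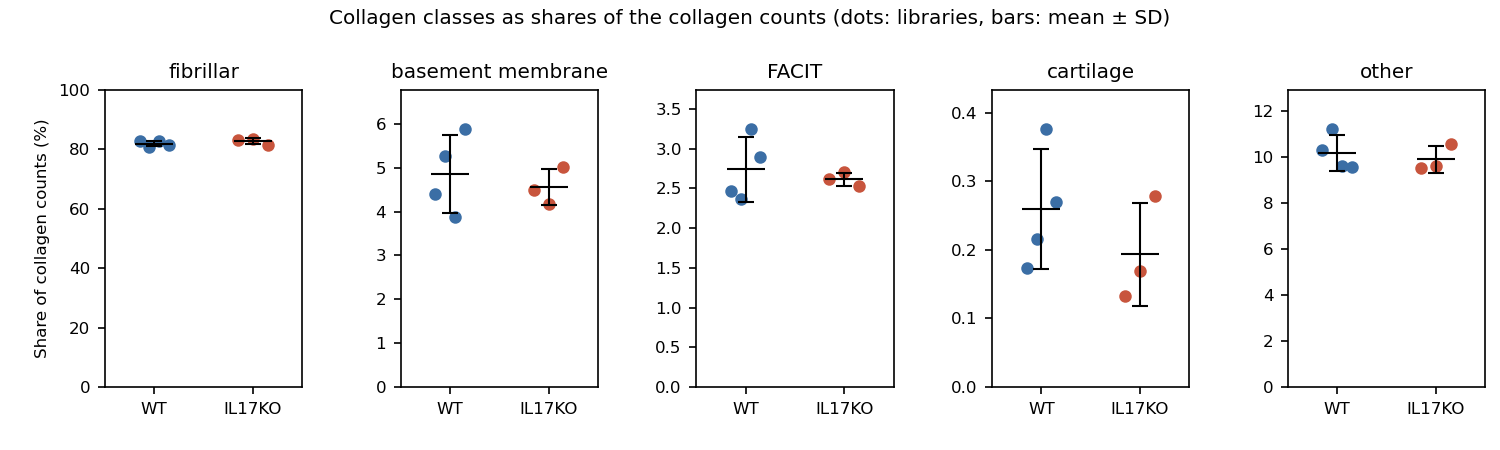
Share of the collagen counts of a library held by each of the 5 groups of collagen genes, in percent, with 1 dot per library and the mean ± SD of 4 WT and 3 IL17KO libraries. Each panel has its own axis from 0. The fibrillar share lies between 80.9% and 83.4% in all 7 libraries, and the groups overlap in every panel.

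Col1a1, the main chain of type I collagen, was the highest member per length, with 30.5% of the CPM per kilobase summed over the family. Its level was 14442, 11686, 19615 and 10446 CPM in WT and 14126, 19631 and 7887 CPM in IL17KO. Col3a1, the single chain of the type III collagen of young granulation tissue, held 24.0% per kilobase and stood at 11426, 9645, 12405 and 7479 CPM in WT and 11502, 12584 and 7245 CPM in IL17KO. Col1a2, the partner chain of type I, held 18.5% per kilobase and stood at 7760, 6748, 10534 and 6266 CPM in WT and 7706, 9766 and 4688 CPM in IL17KO. In each of these 3 genes IL17KO replicate 3 was the lowest library. The WT values lay within the IL17KO range, except that WT replicate 3 exceeded it in Col1a2.

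The type V chains, which sit inside type I fibrils and set their diameter, followed at a lower level. Per kilobase Col5a2 and Col5a1 held 3.74% and 3.61% of the family and Col5a3 1.80%. Col5a1 ran from 1373 CPM in IL17KO replicate 3 to 3397 CPM in WT replicate 3. The 2 remaining fibrillar genes were rare, with Col27a1 at 46.6 to 91.1 CPM. Col24a1, known from developing bone and cornea, stood at 13.4, 15.6, 17.2 and 9.20 CPM in WT and 11.7, 15.3 and 10.96 CPM in IL17KO, where the groups overlapped and WT replicate 4 was lowest.

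Basement membrane collagens held 3.88% to 5.89% of the collagen counts in WT and 4.18% to 5.01% in IL17KO. Col4a1 and Col4a2, the chains of the common type IV network, led this group. Col4a1 stood at 885, 880, 991 and 914 CPM in WT and 897, 1022 and 599 CPM in IL17KO, and Col4a2 at 581, 601, 643 and 615 CPM in WT and 597, 701 and 401 CPM in IL17KO. The WT libraries lay close together in both genes, and the IL17KO libraries reached both above and below them.

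Col18a1, whose C-terminal fragment is endostatin, stood at 329, 351, 356 and 276 CPM in WT and 301, 376 and 226 CPM in IL17KO. The WT values lay within the IL17KO range. Col15a1, a related proteoglycan collagen of muscle and vessel basement membranes, had 213 to 280 CPM in WT and 159 to 293 CPM in IL17KO, and Col7a1, the anchoring fibril collagen, 17.1 to 40.6 CPM over all libraries. Of the type IV chains known from kidney, Col4a3 and Col4a4 had means of 0.567 and 1.06 CPM over all libraries and Col4a5 5.71 CPM. Col4a3 had 10, 8, 3 and 16 counts in WT and 20, 15 and 21 in IL17KO, and its WT maximum overlapped the lowest IL17KO library at 0.594 against 0.588 CPM. Col4a5, on the X chromosome, was the steadiest of the tested members, with a highest level 1.26 times its lowest.

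Col12a1 led the FACIT collagens, which held 2.36% to 3.25% of the collagen counts. Its product lies on the surface of type I fibrils in tendon, ligament and healing tissue. Its level was 754, 590, 1418 and 583 CPM in WT and 822, 1103 and 408 CPM in IL17KO, so that WT replicate 3 was 3.48 times IL17KO replicate 3. Col16a1 showed the same high and low libraries, at 215, 204, 352 and 234 CPM in WT and 201, 280 and 153 CPM in IL17KO. Col14a1, which also binds fibrils, varied little, at 182, 145, 164 and 178 CPM in WT and 182, 181 and 136 CPM in IL17KO. The rest of the group, Col19a1, Col20a1 and Col22a1, stayed between 0.863 and 10.6 CPM.

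Cartilage collagens were scarce on this day, at 0.133% to 0.377% of the collagen counts. Col11a1, which forms the core of cartilage fibrils and is also made outside cartilage, supplied most of them and stood at 73.0, 76.3, 209 and 80.1 CPM in WT and 52.8, 90.8 and 62.9 CPM in IL17KO. WT replicate 3 was far above the rest, and the other 3 WT libraries lay within the IL17KO range. Summed CPM of the chondrocyte markers was also highest in WT replicate 3, at 78.6 against 34.1 to 45.1 in the other 6 libraries, with Acan, the large cartilage proteoglycan, at 32.7 CPM there and 2.21 to 9.95 elsewhere. The part of these markers in the Col11a1 value was not tested.

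Col2a1, the defining collagen of cartilage, was close to the floor, with 17, 22, 21 and 22 counts in WT and 6, 13 and 12 in IL17KO. That is 0.782, 1.19, 1.01 and 0.816 CPM in WT and 0.245, 0.509 and 0.532 CPM in IL17KO. The groups did not overlap. Col10a1, the collagen of hypertrophic chondrocytes, stood at 2.21, 1.46, 0.911 and 1.26 CPM in WT and 1.60, 1.33 and 2.17 CPM in IL17KO. Col11a2, a partner chain of Col11a1, stood at 4.96, 5.94, 11.2 and 10.2 CPM in WT and 6.09, 4.58 and 11.5 CPM in IL17KO. The groups overlapped in both. Col9a2, of the collagen on the surface of cartilage fibrils, ran from 0.491 to 1.63 CPM.

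The last 14 genes held 9.56% to 11.2% of the collagen counts in WT, led by the type VI chains. Col6a1 stood at 1394, 1255, 1612 and 970 CPM in WT and 1211, 1522 and 899 CPM in IL17KO. Col6a2 stood at 1501, 1334, 1647 and 1023 CPM in WT and 1325, 1712 and 972 CPM in IL17KO. Both were highest in WT replicate 3 or IL17KO replicate 2 and lowest in IL17KO replicate 3, and the groups overlapped. Col6a3, the longest of the common type VI chains, stood at 1663, 1618, 1979 and 1021 CPM in WT and 1629, 1982 and 877 CPM in IL17KO. The related Col6a4 and Col6a5 had at most 0.549 CPM, and Col6a6 had 5.51 to 9.31 CPM.

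The type VIII chains, made by vessel wall and endothelial cells and by fibroblasts, differed in level. Col8a1 had 152 to 390 CPM and Col8a2 11.2 to 43.7 CPM, and both were highest in WT replicate 3. Among the transmembrane collagens Col23a1 had 21.7 to 33.6 CPM, Col13a1, found at the junction of nerve and muscle, 4.05 to 6.07 CPM, and Col17a1, of epithelial hemidesmosomes, 0.205 to 1.06 CPM. Col25a1, a transmembrane collagen needed for motor innervation of muscle, had 0.965, 0.919, 0.288 and 0.557 CPM in WT and 1.35, 1.14 and 0.843 CPM in IL17KO, with overlap. Col26a1 and Col28a1 had 9.62 to 14.1 and 3.98 to 7.26 CPM.

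The collagen genes varied together over the libraries. Summed collagen CPM was 47341, 40145, 59745 and 34878 in WT replicates 1 to 4 and 46536, 58275 and 28193 in IL17KO replicates 1 to 3. The highest library was 2.12 times the lowest over all 7, 1.71 times within WT and 2.07 times within IL17KO, while the IL17KO mean was 0.974 times the WT mean. Of the 24 members with a mean of at least 10 CPM, 19 (79.2%) were lowest in IL17KO replicate 3 and 22 (91.7%) were highest in WT replicate 3 or IL17KO replicate 2. Of all 9453 tested genes at that level these shares were 30.3% and 40.9%. The ratio of the highest to the lowest library had a median of 1.91 over these 24 members and 1.45 over all genes of that level.

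**Figure D2:**
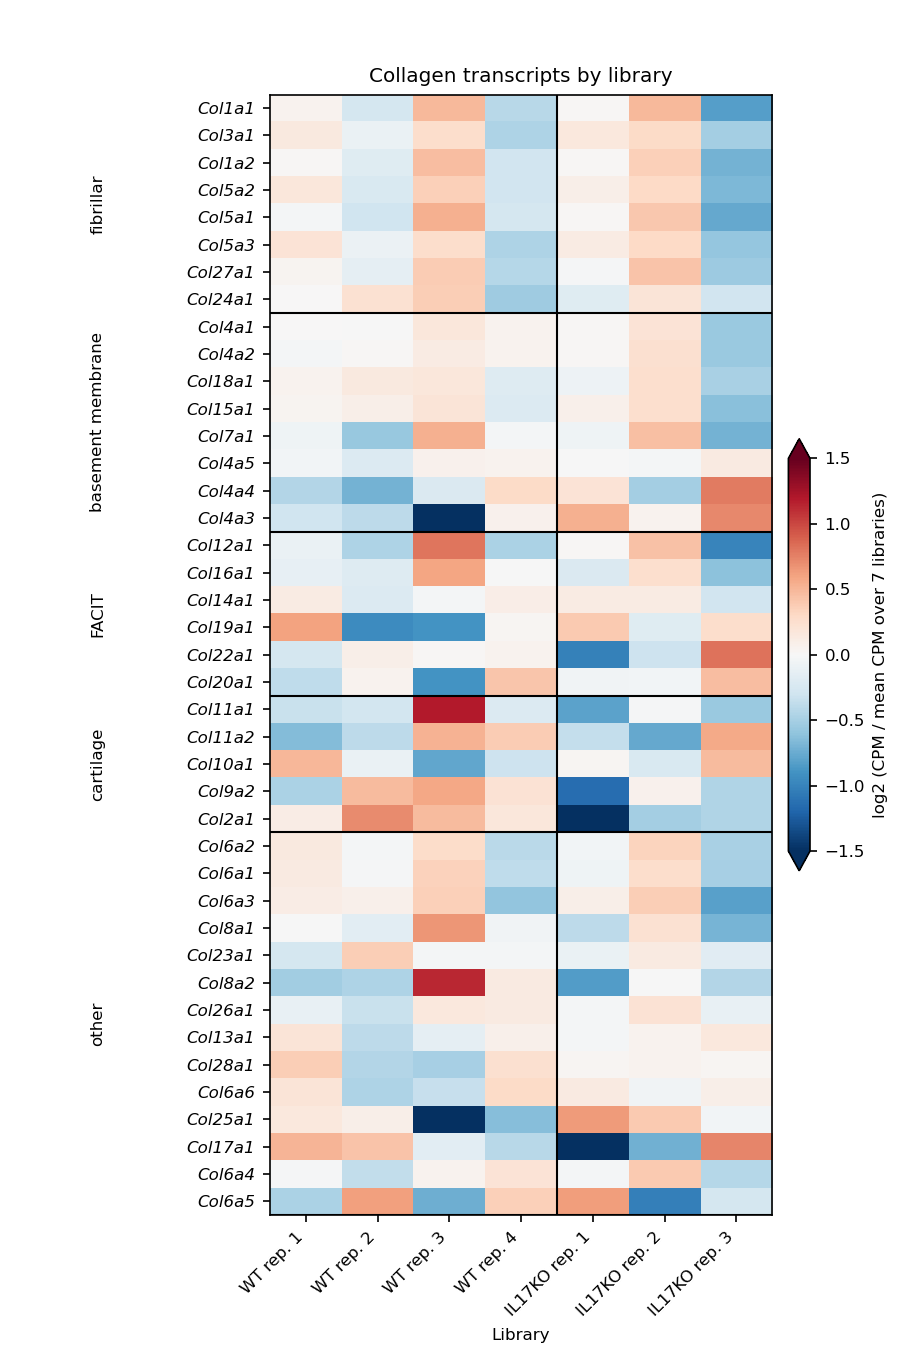
Level of each of the 41 tested collagen genes in each library, as log2 of its CPM over its mean CPM in the 7 libraries (colour, cut at −1.5 and 1.5), by group of collagens and sorted by mean level per length within it. WT replicate 3 and IL17KO replicate 2 are red and IL17KO replicate 3 is blue in most abundant members, while the scarce members of the lower parts show no common order.

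A few members went another way. In IL17KO replicate 3, where the abundant chains were lowest, Col4a3, Col4a4, Col4a5, Col11a2, Col20a1, Col22a1 and Col17a1 were at their highest. These are 7 of 41 tested members, beside 27.2% of all tested genes that were highest in that library. All 7 had means under 10 CPM, where counting error is larger, although Col22a1 and Col11a2 had 151 and 260 counts in IL17KO replicate 3. Col22a1, known from the junction of muscle and tendon, stood at 6.70 CPM there and 1.88 to 4.05 CPM elsewhere.

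Muscle transcripts ran the other way. Summed CPM of the 25 muscle markers was 52813, 58441, 20360 and 66065 in WT and 64993, 39818 and 125497 in IL17KO, lowest in WT replicate 3 and highest in IL17KO replicate 3. All 25 had positive log2 fold changes, IL17KO over WT, with a median of 0.61. The groups overlapped in the sum, and edgeR called 0 of the 25, beside 0.156% of all tested genes. Fibroblast markers varied less than collagen, from 2004 to 2513 CPM in WT and from 1853 to 2297 CPM in IL17KO, the highest 1.36 times the lowest. Of the 11 markers edgeR called 1, Thy1, beside 0.156% of all tested genes. Thy1 stood at 243 ± 43.8 CPM in WT and 93.1 ± 19.3 CPM in IL17KO (edgeR adjusted p = 0.0463). The part of the muscle level in the collagen values was not tested, and in bulk tissue fewer cells of a type and less RNA per cell cannot be told apart. Values adjusted for the muscle level stand beside the genotype comparison.

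**Figure D3:**
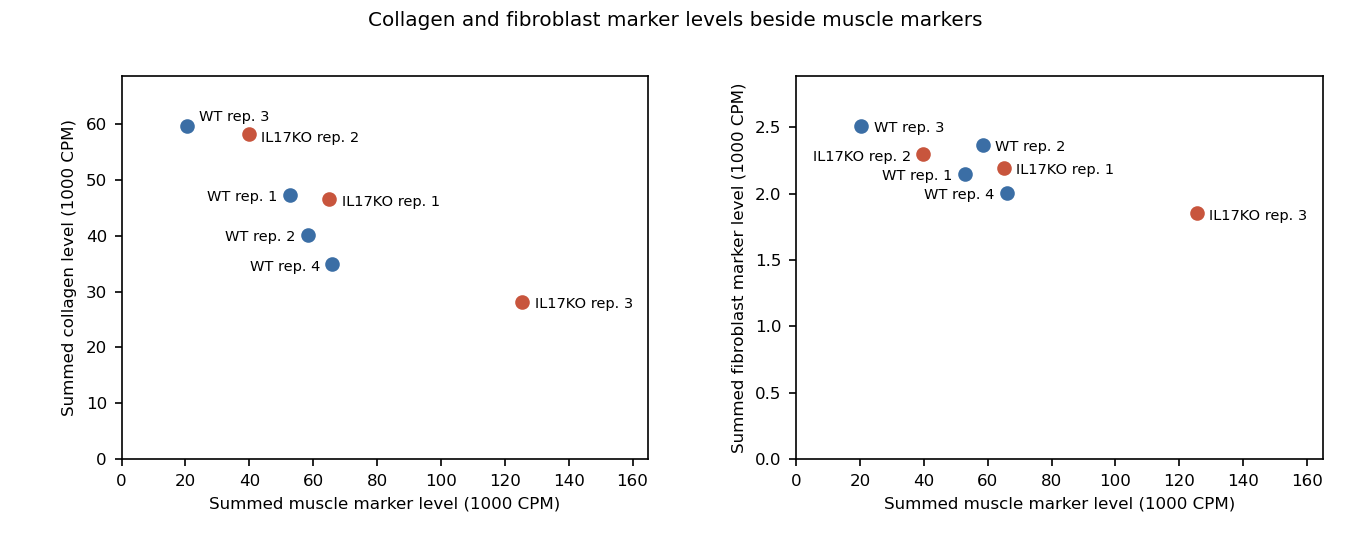
Summed collagen CPM (left) and summed CPM of 11 fibroblast markers (right) against the summed CPM of 25 skeletal muscle markers, in units of 1000 CPM, with 1 dot per library, WT blue and IL17KO red. Collagen runs from 59745 CPM in WT replicate 3, with the least muscle RNA, to 28193 CPM in IL17KO replicate 3, with the most, while fibroblast markers span 1853 to 2513 CPM.

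Between genotypes no collagen gene passed the test, although the intervals left room for sizeable differences in either direction. By edgeR's quasi-likelihood test with Benjamini-Hochberg adjustment over all 15399 tested genes, 0 of 41 collagen genes had an adjusted p under 0.05, beside 24 genes in all (0.156%). The lowest adjusted p of a collagen gene was 0.987. At an unadjusted p under 0.05 there was 1 collagen gene, Col2a1, beside 3.04% of all genes. DESeq2 likewise called 0 of 41, beside 0.364% of all genes, with 1 at an unadjusted p under 0.05 (Col2a1), beside 3.03%. Limma voom, run with a quality weight for each library, called 0, beside 0.422% of all genes. It had 7 at an unadjusted p under 0.05, beside 9.36%. The CPM of the groups did not overlap in 1 collagen gene, again Col2a1, beside 3.89% of all genes.

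Type I and III chains differed little in the mean. In a type I chain, Col1a1, WT had 14047 ± 4071 CPM (SD, n = 4) and IL17KO 13881 ± 5876 CPM (SD, n = 3). Its log2 fold change, IL17KO over WT, was −0.02 with a 95% interval of −0.86 to 0.83, which spans 0.551-fold to 1.77-fold. For Col3a1 the log2 fold change was 0.03 (95% interval −0.64 to 0.70) and for Col1a2 −0.08 (−0.80 to 0.63). A p that misses the threshold does not show that the genotypes are alike, and these intervals leave differences of up to about those sizes undecided. After adjustment for the muscle level Col1a1 was at 0.28 ± 0.16 (SE), and with both outlying libraries left out at 0.47 ± 0.26.

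Narrower intervals came from members that varied less between libraries. That of Col14a1 ran from −0.34 to 0.33 and that of Col4a5 from −0.26 to 0.38. For Col4a1 the log2 fold change was −0.13 (−0.58 to 0.33), for Col4a2 −0.11 (−0.55 to 0.34) and for Col6a1 −0.11 (−0.66 to 0.44). Col12a1, from the FACIT group, had −0.11 with a wide interval of −1.03 to 0.82. Its sign turned after adjustment for the muscle level, to 0.35 ± 0.13 (SE), and with both outlying libraries left out, to 0.58 ± 0.19, and neither value passed the test.

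**Figure D4:**
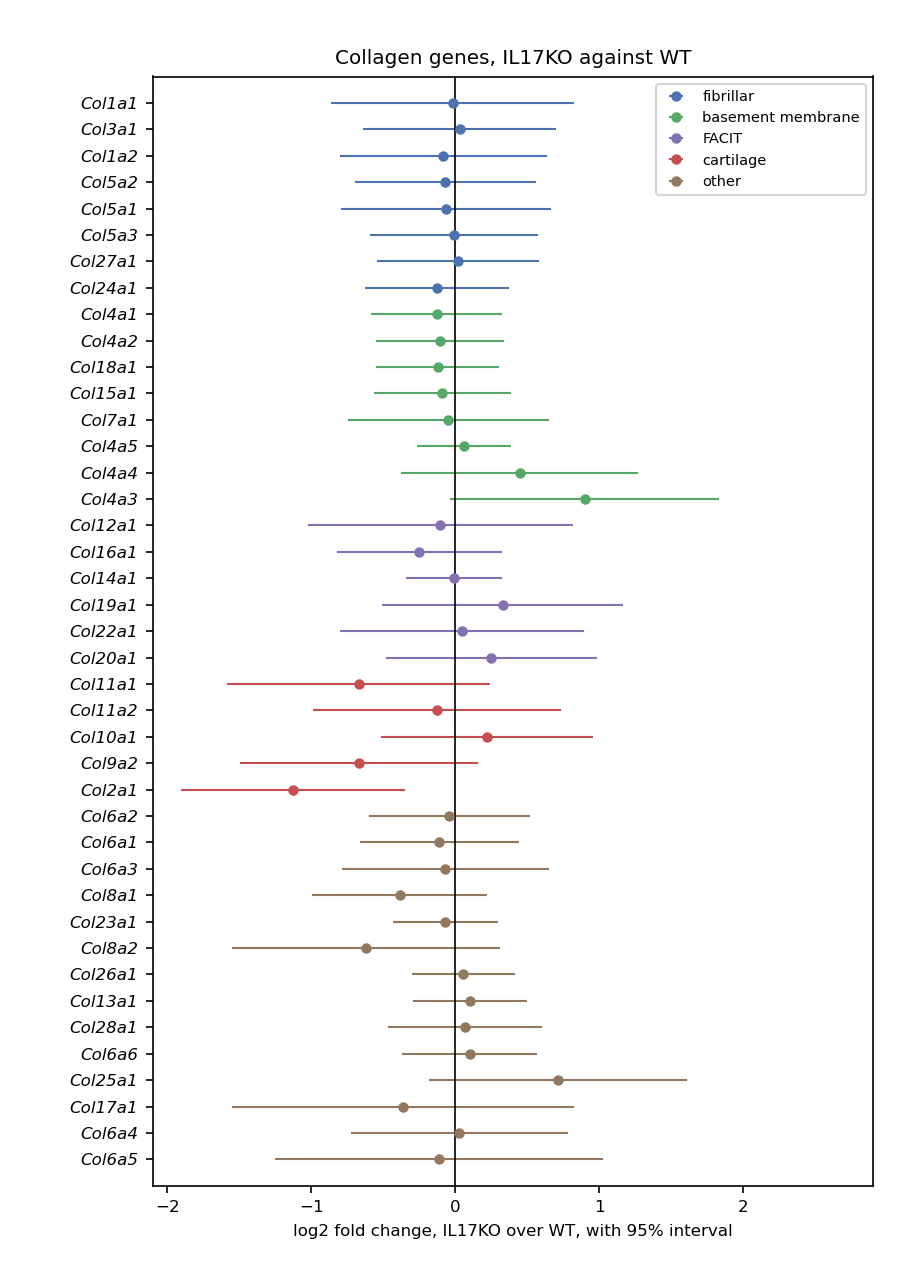
Log2 fold change of IL17KO over WT for the 41 tested collagen genes, with 95% intervals from the edgeR fit to 4 WT and 3 IL17KO libraries, coloured by group of collagens. The interval of Col2a1, from −1.90 to −0.35, is the only one that does not include 0, and it comes from 6 to 22 counts per library.

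Col2a1 had a log2 fold change of −1.13 ± 0.34 (SE, 95% interval −1.90 to −0.35, edgeR adjusted p = 0.987). It was lower in 3 of 3 IL17KO libraries than in any of the 4 WT libraries. Its adjusted p was 0.059 with limma voom and 0.570 or more in the other alternatives that tested it, and its log2 fold change from −0.85 to −1.63. A filter of 1 CPM in 3 libraries removed the gene. The filter on low counts used here asks for 0.407 CPM in 3 libraries, which 4 WT and 2 IL17KO libraries reached in Col2a1, so the gene entered the test through WT. Col17a1, Col6a4 and Col6a5 also reached it in fewer than 3 IL17KO libraries.

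In the cartilage group 4 of 5 tested members had negative log2 fold changes, with a median of −0.67. Both values count Col2a1, which entered the test through WT, so they give no separate reading of the group. Col11a2 was at −0.13 and Col10a1 at 0.22. Col9a2 stood at −0.67 (−1.49 to 0.15) and Col11a1 at −0.67 (−1.58 to 0.24), and neither passed the test. The Col11a1 value rested on WT replicate 3, since without that library it was −0.16 ± 0.19 (SE). Medians in the other groups lay closer to 0, at −0.04 in the fibrillar (6 of 8 negative), −0.07 in the basement membrane (5 of 8), 0.02 in the FACIT (3 of 6) and −0.06 in the remaining collagens (8 of 14).

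Over all 41 tested members 26 had a negative log2 fold change, beside 49.4% of all tested genes, and the median was −0.07 beside 0.00. Adjustment for the muscle level left 16 negative members, and omission of both outlying libraries left 13. Among positive values, Col4a3 had the largest, 0.90 ± 0.41 (SE, 95% interval −0.04 to 1.83), followed by Col25a1 at 0.71 ± 0.39 (−0.18 to 1.61), both from a mean of under 1 CPM over all libraries.

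Some chains of 1 protein stood in close proportion within a library. Col4a1 over Col4a2 was 1.52, 1.46, 1.54 and 1.49 in WT and 1.50, 1.46 and 1.49 in IL17KO, a spread of 1.06 times from lowest to highest, while the CPM of the genes themselves spread 1.71 and 1.75 times. Both genes lie head to head on chromosome 8. Their RefSeq promoter windows, 250 bases before to 50 after each start, share 78 bases. The start sites are 21 bases apart, and each lies inside the other transcript, so that the transcripts overlap at their first bases. The Col4a2 window (GRCm38.p6, chr8:11312555-11312854, plus strand) is shown because it covers both start sites, with the bases shared with the Col4a1 window (chr8:11312777-11313076, minus strand) in capitals.
Col4a2 promoter: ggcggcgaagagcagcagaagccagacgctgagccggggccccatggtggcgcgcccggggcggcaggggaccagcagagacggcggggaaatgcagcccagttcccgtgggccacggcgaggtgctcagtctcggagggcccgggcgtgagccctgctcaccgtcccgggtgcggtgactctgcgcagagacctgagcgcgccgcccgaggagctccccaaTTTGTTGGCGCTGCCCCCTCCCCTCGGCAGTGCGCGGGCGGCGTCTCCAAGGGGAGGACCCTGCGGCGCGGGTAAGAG
The shared stretch holds GGGCGG, the box that Sp1-type factors can bind, on the plus strand. That match begins at base 8 of the Col4a2 transcript and lies downstream of both start sites.

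Col6a1 over Col6a2, whose genes neighbour each other on chromosome 10, was 0.929, 0.941, 0.979 and 0.948 in WT and 0.913, 0.889 and 0.925 in IL17KO. The IL17KO values lay below the WT values without overlap, as in 1 of the 11 ratios examined, and the highest library was 1.10 times the lowest. No test was made of it. Col1a1 over Col1a2, genes on chromosomes 11 and 6, was 1.86, 1.73, 1.86 and 1.67 in WT and 1.83, 2.01 and 1.68 in IL17KO, and per kilobase the mean ratio was 1.63.

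Other pairs were looser. Col1a1 over Col3a1 ran from 1.21 to 1.58 in WT and from 1.09 to 1.56 in IL17KO, highest in the collagen-rich WT replicate 3 and IL17KO replicate 2. Col5a1 over Col5a2 spread 1.30 times and Col6a3 over Col6a1 1.38 times. Col11a1 over Col11a2 ran from 5.45 to 19.8, with IL17KO replicate 3 lowest and IL17KO replicate 2 highest.

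**Figure D5:**
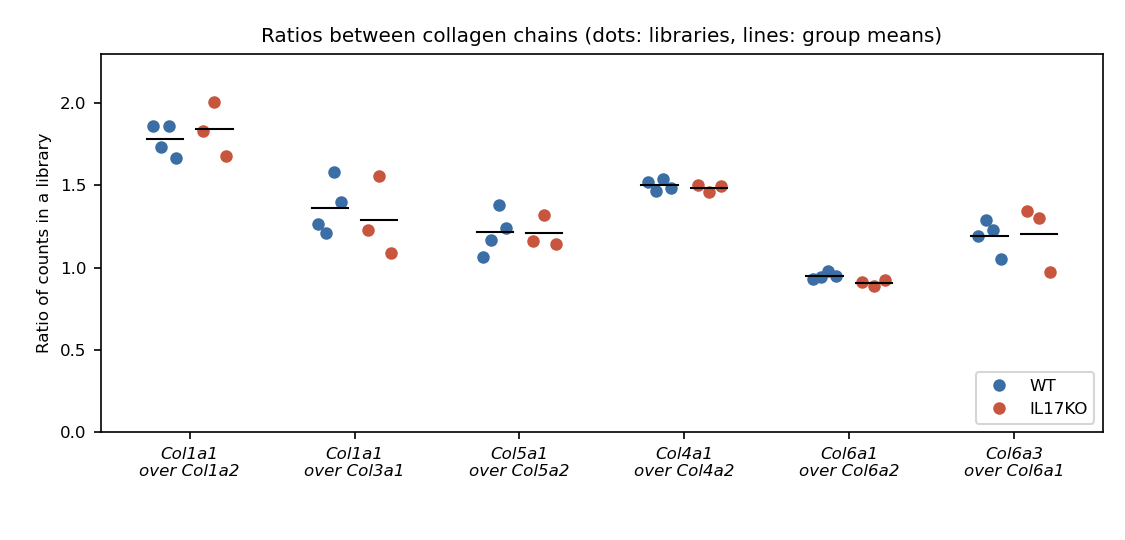
Ratio of the counts of a pair of collagen genes within a library, for 6 pairs, with 1 dot per library (WT blue, IL17KO red) and a line at each group mean. Col4a1 over Col4a2 lies between 1.46 and 1.54 in all 7 libraries, and Col6a1 over Col6a2 is the pair whose groups do not overlap.

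Promoter letters were compared over all members with a window, abundant and scarce alike. RefSeq windows of 300 bases were found for 35 of the 44 genes, 38 windows in all. Col1a1, Col2a1, Col4a3, Col5a2, Col9a3, Col12a1, Col14a1, Col22a1 and Col26a1 had no window. On either strand GGGCGG occurred in 23 of the 38 (60.5%), beside 35.7% of 32851 windows of the same length, CCAAT in 13 (34.2%, beside 37.4%) and TATAAA in 5 (13.2%, beside 13.6%). Among abundant members GGGCGG was present in Col1a2, Col5a1 and Col6a2 and absent in Col3a1, Col6a1 and Col6a3. The scarce Col4a6 and Col9a2 also held it, so the share does not describe the abundant chains alone. On the minus strand GGGCGG reads CCGCCC and can share letters with CCAAT, and a match is a description of the window, not a binding site. The windows of Col1a2 (chr6:4505368-4505667, plus strand) and Col3a1 (chr1:45311288-45311587, plus strand; both GRCm38.p6) are shown as 2 abundant members that were lowest in the same library and hold different letters, with motif matches on either strand in capitals.
Col1a2 promoter: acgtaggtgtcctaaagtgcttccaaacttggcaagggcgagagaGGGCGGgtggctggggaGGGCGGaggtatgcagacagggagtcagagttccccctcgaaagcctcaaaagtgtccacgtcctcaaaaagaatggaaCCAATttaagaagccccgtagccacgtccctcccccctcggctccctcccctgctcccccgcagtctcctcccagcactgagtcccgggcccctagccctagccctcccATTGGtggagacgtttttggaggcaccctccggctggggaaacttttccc
Col3a1 promoter: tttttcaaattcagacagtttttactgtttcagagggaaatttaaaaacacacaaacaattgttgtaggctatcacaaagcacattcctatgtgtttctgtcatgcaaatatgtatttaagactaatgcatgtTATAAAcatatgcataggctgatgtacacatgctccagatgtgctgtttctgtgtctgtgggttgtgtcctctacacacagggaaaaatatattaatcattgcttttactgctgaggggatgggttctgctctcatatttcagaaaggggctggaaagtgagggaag
Col1a2 held GGGCGG at 205 and 188 bases and CCAAT at 109 bases before the start. A further CCAAT match in Col1a2, on the minus strand, began at the start base itself. Col3a1 held TATAAA at 117 bases before its start.

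Genes that make and mature collagen were, like the collagens, at their highest summed level in WT replicate 3 and their lowest in IL17KO replicate 3. No values adjusted for the muscle level are given for these genes, and the part of the muscle level in them was not tested. Among 15 hydroxylation genes, which modify proline and lysine before the helix folds, 14 had negative log2 fold changes (median −0.13) and none passed the test. The group includes P4ha1, a prolyl 4-hydroxylase subunit, with WT at 154 ± 34.5 CPM and IL17KO at 126 ± 29.2 CPM, and Plod2, a lysyl hydroxylase of collagen telopeptides, at 178 ± 44.7 CPM in WT and 145 ± 40.1 CPM in IL17KO. P3h2, a prolyl 3-hydroxylase, was the 1 member of 15 whose groups did not overlap, beside 3.89% of all genes, at 5.75 to 6.53 CPM in WT and 4.66 to 5.72 CPM in IL17KO, with a log2 fold change of −0.27 ± 0.14 that did not pass (edgeR adjusted p = 0.987).

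Of the 7 chaperone and export genes 6 were negative, with a median of −0.14. Serpinh1, the collagen chaperone HSP47, stood at 1657 ± 471 CPM in WT and 1477 ± 471 CPM in IL17KO. Among 7 tested propeptide cleavage genes 6 were negative (median −0.13), and among 5 crosslinking genes 4 were (median −0.15), with Lox, the lysyl oxidase that starts crosslinking, at 736 ± 220 and 621 ± 193 CPM. In each of these 4 lists edgeR, DESeq2 and limma voom called 0 members, beside 0.156%, 0.364% and 0.422% of all genes. At an unadjusted p under 0.05 edgeR and DESeq2 had 0 in each, beside 3.04% and 3.03% of all genes. Limma voom had 1 hydroxylation gene, P3h2, and 1 crosslinking gene, Loxl4, beside 9.36% of all genes with that tool.

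Of 9 tested collagen receptors 6 were negative, with a median of −0.10. Lair1, an inhibitory collagen receptor of leukocytes, had 34.9 to 45.6 CPM in WT and 31.2 to 32.4 CPM in IL17KO without overlap, the 1 receptor of 9 that did so beside 3.89% of all genes, with a log2 fold change of −0.35 ± 0.12 (edgeR adjusted p = 0.987). Fibril partners had 6 of 9 negative values and a median of −0.06, with decorin (Dcn) at 0.05 and fibronectin (Fn1) at −0.05. Of the 6 collagen-degrading enzymes all were negative, with a median of −0.53. Their values ran from −1.59 for Mmp9 to −0.02 for Mmp14. Mmp14, the most abundant of them, stood at 586 ± 142 CPM in WT and 580 ± 167 CPM in IL17KO. Mmp9, a gelatinase of neutrophils and osteoclasts, stood at 41.5, 65.0, 215 and 49.5 CPM in WT and 21.1, 47.0 and 24.3 CPM in IL17KO, and Mmp13, a collagenase of bone and cartilage cells, at 7.91, 12.8, 68.3 and 18.7 CPM and 9.86, 8.19 and 12.2 CPM. In both, WT replicate 3 was far above every other library and the groups overlapped. Neutrophil markers had the same direction. Of 7 markers 5 were tested, all 5 with negative log2 fold changes (median −0.95). None was called by edgeR, DESeq2 or limma voom, beside 0.156%, 0.364% and 0.422% of all genes. At an unadjusted p under 0.05 edgeR had 2, S100a8 and S100a9, beside 3.04% of all genes. DESeq2 had 3, beside 3.03%, and limma voom had all 5, beside 9.36%. Summed CPM of the 7 markers was 40.5 to 100.9 in WT and 27.6 to 60.1 in IL17KO, highest in WT replicate 3. Ly6g, a defining neutrophil marker, was at 0 outside WT replicates 2 and 4. Mmp8, a collagenase of neutrophils, belongs to both lists, and the part of neutrophil RNA in the enzyme values was not tested. In the receptor, fibril partner and degrading enzyme lists 0 members were called by edgeR, DESeq2 or limma voom. The shares of all genes called were 0.156%, 0.364% and 0.422%. At an unadjusted p under 0.05 these lists had 1, 0 and 1 members by edgeR and the same numbers by DESeq2. Limma voom had 1, 1 and 2. The shares of all genes were 3.04%, 3.03% and 9.36% with edgeR, DESeq2 and limma voom.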

How the data were processed

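Polyadenylated RNA was sequenced from 4 WT and 3 IL17KO soft tissue samples with a stranded mRNA kit, per the labels' protocols. The authors deposited read counts for each gene without normalization. A normalized signal that they also deposited is the same counts after division by a size factor, and covers 19754 genes with at least 10 counts in total. TopHat, HTSeq, DESeq2, cutadapt, FastQC and bcl2fastq are named with GRCm39 in the submitters' processing notes. Their settings, such as the strand used in counting, are not given in the sources used. Columns were matched to samples by the library names in the labels.

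Groups were compared by edgeR 4.0.16 under R 4.3.3 (two-sided quasi-likelihood test, TMM, filterByExpr, robust dispersion, Benjamini-Hochberg adjusted p under 0.05 over 15399 genes), after the procedure was tested on simulated data. Standard errors are the log2 fold change over the square root of F, and 95% intervals use the fit's t distribution. CPM used TMM-scaled library sizes. Lengths are those of the transcript with the longest coding sequence in GENCODE's GRCm38 annotation. At most 1.54% of a member's exon bases there were shared with a gene on the same strand and 6.07% with one on the other, in Col20a1 and Col9a3. Sums, shares and ratios over members were not tested. The members and lists were chosen with earlier results of these data known. Genes given in every library are the 3 highest per length in each group of collagens, the one with the smallest p and any whose groups do not overlap. Alternatives were DESeq2 1.42.0, limma 3.58.1 voom, RLE, other filters, the replicate block, the muscle level as a covariate and libraries left out. The limma voom fit gave each library its own quality weight, so libraries did not count equally in it. No pair of replicates was a repeat deposit, since the mean chi-square over genes was 22.3 or more. The floor of 3 counts covers counting error only.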

Additional observations from a re-analysis of the deposited data

Results flagged for a closer look

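Col11a1 in WT replicate 3 stood at 209 CPM, far from the 73.0 to 80.1 CPM of the other 3 WT libraries, a gap of 0.948 of the range of the group. It was the only value beyond Dixon's 95% critical value among the 36 levels, sums, shares and ratios checked in WT, and chance alone marks about 1 in 20. Groups of 3 were not checked. The chondrocyte markers, Mmp9 and Mmp13 were at their highest in the same library, and their part in the Col11a1 value was not tested. The check did not cover the chondrocyte marker sum, Mmp9 or Col8a1, so other values of that library can lie as far out.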

How the results depend on the processing

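No collagen gene was called in any of the alternatives run, and none of the 19 collagen genes given in every library crossed the threshold. The number of genes called over all genes was 24. It became 2 under the replicate block, 42 with no filter, 65 by limma voom and 56 by DESeq2, and 8 to 21 with 1 library left out. The 26 negative members became 15 by limma voom, 16 with the muscle covariate, 13 when WT replicate 3 and IL17KO replicate 3 were both left out and 13 to 31 with 1 library left out. The log2 difference of summed collagen CPM, −0.07, became 0.36 without that pair. The cause was not tested.

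Signs turned in 15 of the 19 genes, each with an interval around 0 in the comparison as reported. With limma voom the log2 fold changes were 0.21 for Col12a1, 0.090 for Col14a1, 0.13 for Col1a1, 0.070 for Col1a2, 0.012 for Col6a2 and 0.11 for Col6a3. That fit also weighted the libraries by quality, and the part of the weights in its values was not tested. With the muscle covariate they were 0.35 for Col12a1, 0.0046 for Col16a1, 0.036 for Col14a1, 0.0049 for Col18a1, −0.027 for Col10a1, 0.28 for Col1a1, 0.18 for Col1a2, 0.060 for Col24a1, 0.15 for Col6a2, 0.092 for Col6a1 and 0.18 for Col6a3. Without the pair they were 0.58 for Col12a1, 0.14 for Col16a1, 0.10 for Col14a1, 0.10 for Col4a1, 0.11 for Col4a2, 0.086 for Col18a1, −0.16 for Col10a1, 0.47 for Col1a1, 0.33 for Col1a2, 0.089 for Col24a1, 0.24 for Col6a2, 0.18 for Col6a1 and 0.33 for Col6a3. With 1 library left out the ranges were −0.0052 to 0.49 for Col10a1, −0.60 to 0.12 for Col11a2, −0.44 to 0.26 for Col12a1, −0.081 to 0.11 for Col14a1, −0.32 to 0.037 for Col18a1, −0.35 to 0.26 for Col1a1, −0.13 to 0.23 for Col3a1, −0.34 to 0.15 for Col1a2, −0.30 to 0.056 for Col4a1, −0.29 to 0.080 for Col4a2, −0.31 to 0.056 for Col6a1, −0.26 to 0.13 for Col6a2 and −0.33 to 0.19 for Col6a3.

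With the replicate block Col14a1 was at 0.017 and Col3a1 at −0.13. The replicate numbers give no pairing, since same-numbered libraries had correlations of 0.14, −0.30 and −0.56, and only number 1 correlated best with its own number. Depth limits Col2a1, Col4a3 and the untested Col4a6, Col9a1 and Col9a3, at 1 to 22 counts a library. It also limits Col6a4, Col6a5, Col17a1, Col25a1 and Col9a2, which had at most 14, 12, 24, 33 and 34 counts in any library.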
